A study of Mus musculus with 15 samples.

Results

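Integrins and laminins are the receptors and the matrix proteins through which cells hold on to a basement membrane, and the genes that encode them were followed in interneurons sorted from the embryonic mouse cortex. The members were all protein-coding genes whose whole symbol is Itga, Itgb or Lam followed by the number or letters of a chain and nothing more, a rule on names and not on measured values. The table of the *Lhx6* comparison held 30 of them among 26835 genes, namely 14 alpha integrins, 6 beta integrins and 10 laminin chains. The table of the *Mtg8* comparison held 32 among 25714 genes, with *Itgb2* and *Lama3* as the members that only it listed, and 30 members were in both tables.

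RNA was measured in 15 libraries, each from the YFP-positive cells of the cortex of 1 mouse embryo at embryonic day 14.5, on a mixed C57BL6/CBA background. The *Lhx6* comparison had 4 controls (Lhx6+/+) and 5 mutants (Lhx6-/-). The *Mtg8* comparison had 3 controls (Mtg8+/+) and 3 libraries labelled mutant (Mtg8-/-). The study describes its controls as littermates. In the library names of the *Lhx6* table only mutant 6 shares a number with controls (1 and 2), and mutants 2 and 5 share a date and number with each other. Controls and mutants alike carried the Nkx2-1-Cre transgene and the reporter R26R-YFP fl/fl, which together mark cells of the medial ganglionic eminence (MGE) and their descendants in the cortex. Per the study's methods both alleles were germline alleles, carried by every cell of the embryo and not by the sorted cells alone. The question asked of the members was whether loss of either factor, LHX6 or its partner MTG8, came with a different level of adhesion genes in migrating interneurons.

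Integrins work as heterodimers of an alpha and a beta chain in the plasma membrane, where the pair of chains sets which ligand is bound. ITGB1 pairs with many alpha chains, and with ITGA3, ITGA6 or ITGA7 it makes receptors of laminin. ITGAV pairs with ITGB1, ITGB3, ITGB5 and ITGB8 and recognises the RGD sequence in matrix proteins and in latent TGF-beta. Laminins are secreted trimers of an alpha, a beta and a gamma chain that polymerise into the basement membrane under the pia, to which radial glia attach their endfeet.

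The sequences shown are the bases just upstream of the transcription start of members whose level in either comparison had an unadjusted p under 0.05, namely *Itgb1*, *Lama5* and *Itga3*. They are taken from the RefSeq promoter table (GRCm38.p6), which held a window for 20 of 32 members. Each window was read from its upstream end and cut at the first base that lay in any annotated exon. The windows of *Itgb8* and *Itga8*, the other members with such a p, had their outermost upstream base in an annotated exon. No bases of them were therefore kept or printed, and their bases nearer the start were not examined. Each is written 5′ to 3′ on the strand of its gene. Capitals mark matches, on either strand, to GGGCGG (the core of the GC box; CCGCCC on the other strand) or to CAGGTG (an E-box; CACCTG on the other strand), and no match shares a base with another.

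*Itgb1*, chr8:128685404-128685653, plus strand: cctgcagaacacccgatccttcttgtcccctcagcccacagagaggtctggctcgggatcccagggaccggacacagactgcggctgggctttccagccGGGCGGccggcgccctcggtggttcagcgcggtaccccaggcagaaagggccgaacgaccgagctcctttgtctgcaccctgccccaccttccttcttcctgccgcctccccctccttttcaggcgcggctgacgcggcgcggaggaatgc

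*Lama5*, chr2:180225860-180226109, minus strand: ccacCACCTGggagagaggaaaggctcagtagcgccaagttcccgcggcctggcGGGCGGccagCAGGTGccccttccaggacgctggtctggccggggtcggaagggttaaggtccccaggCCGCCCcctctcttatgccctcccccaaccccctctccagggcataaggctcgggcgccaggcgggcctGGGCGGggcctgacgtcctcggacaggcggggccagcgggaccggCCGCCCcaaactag

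*Itga3*, chr11:95076802-95076964, minus strand: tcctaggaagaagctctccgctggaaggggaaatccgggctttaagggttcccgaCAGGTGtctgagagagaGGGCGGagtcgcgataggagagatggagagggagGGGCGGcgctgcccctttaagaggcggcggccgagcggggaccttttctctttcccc

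The *Itgb1* window held 1 GGGCGG match, the *Lama5* window 4 with 2 CAGGTG matches, and the shorter *Itga3* window of 163 bases 2 with 1 CAGGTG match. Of the 9 members with a full window of 250 bases, 5 held GGGCGG and 2 held CAGGTG, against 32.7% and 17.2% of 32851 windows of that length in the whole table. TAATTA, the core letters bound by many homeodomain proteins, was in 0 of the 9 member windows and in 4.84% of all windows. TATAAA was likewise in 0 of the 9 and in 12.4% of all. The median GC content was 64.0% in the 9 member windows and 52.4% over all. A match is a description of letters, and its absence says only that these letters are not in these bases.

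Depth ranged from 12218422 to 22053032 reads per library. *Lhx6* fell from 7247 ± 1093 (SD, n = 4) normalized counts in controls to 331 ± 99.7 (SD, n = 5) in mutants. *Runx1t1*, the gene of MTG8, was at 8891 ± 1219 (SD, n = 3) in the *Mtg8* controls and at 12845 ± 944 (SD, n = 3) in the libraries labelled mutant, that is, not lower, and these libraries are named by their label throughout. Markers of MGE interneurons were abundant in every library, with a summed level over the 15 genes of the list in the tables of 1512 to 1686 RPKM, that is, reads scaled to exon length and library depth, in *Lhx6* controls, 561 to 852 in *Lhx6* mutants, 1668 to 1955 in *Mtg8* controls and 854 to 1237 in labelled *Mtg8* mutants. The list holds *Lhx6* itself and *Sst*, and the median of *Sst* was 1028 RPKM in *Lhx6* controls and 122 in *Lhx6* mutants. Markers of the pyramidal lineage, which the sort should leave out, summed over 10 genes to 399 to 567 RPKM in the *Lhx6* controls and to 125 to 311 in the *Mtg8* controls. The 12 endothelial markers summed to at most 6.87 RPKM in any library, the 12 listed mural and fibroblast markers to at most 17.3 and the 13 microglial and leukocyte markers to at most 29.5, with the leukocyte gene *Ptprc* at 0 to 0.037. Globin and other erythroid or megakaryocyte markers summed to 160 to 5281 RPKM. In such bulk samples fewer cells of a type and less RNA per cell cannot be told apart.

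*Itgb1*, which encodes the beta chain common to most laminin and collagen receptors, was the most abundant member per length in both sets of controls. Its level was 16.6 ± 2.46 (SD, n = 4) RPKM in *Lhx6* controls and 7.34 ± 1.58 (SD, n = 3) RPKM in *Mtg8* controls. Next in the *Lhx6* controls came the laminin-binding chain *Itga6* (1.84 ± 0.258, SD, n = 4), *Itgb8*, the partner of ITGAV in a receptor that activates latent TGF-beta (1.40 ± 0.187, SD, n = 4), and the laminin gamma chain *Lamc1* (0.923 ± 0.0882, SD, n = 4). The ranges of these first genes over libraries did not meet, whereas from *Lamc1* and *Itga3* down to rank 10 each gene's range met that of its neighbour. Ranks 5 to 10 were *Itga3*, *Lamb1*, *Lama1*, *Lamb2*, *Itgav* and *Itgb5*, between 0.572 and 0.306 RPKM on average. In the *Mtg8* controls *Itgb8* (1.22 ± 0.276, SD, n = 3) and *Itga6* (1.12 ± 0.318, SD, n = 3) were followed by *Itga3*, *Lamb1*, *Lamc1* and *Lama1*, between 0.904 and 0.740 RPKM on average. There every gene from *Itgb8* to rank 10 had a range that met its neighbour's, although *Itgb8* and *Itga6* lay wholly above *Lamb2*, *Itga5* and *Itgav*, at ranks 8 to 10. The tables were normalized separately, and RPKM was computed within each library from its own reads.

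Few genes held much of the signal of each class. *Itgb1* made up a median of 90.4% of the summed RPKM of beta integrins in *Lhx6* controls and 78.8% in *Mtg8* controls, and 86.6% and 87.0% in the corresponding mutant groups. *Itgb8* made up a median of 7.68% in *Lhx6* controls and 11.3% in *Lhx6* mutants, and of 13.3% in *Mtg8* controls and 10.7% in labelled *Mtg8* mutants, with overlapping groups in both tables. Among alpha integrins *Itga6* had the largest part in every library except labelled *Mtg8* mutant 4, where *Itga3* was higher (1.02 against 0.863 RPKM). The part of *Itga6* was a median of 51.1% in *Lhx6* controls and 46.3% in *Lhx6* mutants, against 37.4% and 37.0% in the *Mtg8* groups. Among laminins, *Lamc1* held a median of 35.7% in *Lhx6* controls and *Lamb1* 17.3%, while in *Mtg8* controls the medians were 22.6% and 27.5%, with *Lamc1* the larger in control 2 and *Lamb1* in controls 1 and 4. Summed over the class, alpha integrins ranged from 3.40 to 4.04 RPKM in *Lhx6* controls and from 2.56 to 3.79 in *Lhx6* mutants, and laminins from 2.33 to 3.004 and from 1.94 to 3.35. The sums of the 2 groups overlapped in each class. In the *Mtg8* table the beta sum ranged from 7.33 to 9.86 RPKM in controls and from 10.7 to 17.4 in labelled mutants, the only class in either table in which the groups did not overlap. *Itgb1* made up 76.3 to 88.0% of that sum in controls and 86.3 to 89.0% in labelled mutants, so the sum largely restates this 1 gene. Of all genes tested there, 4.68% had every labelled mutant above every control.

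**Figure D1:**
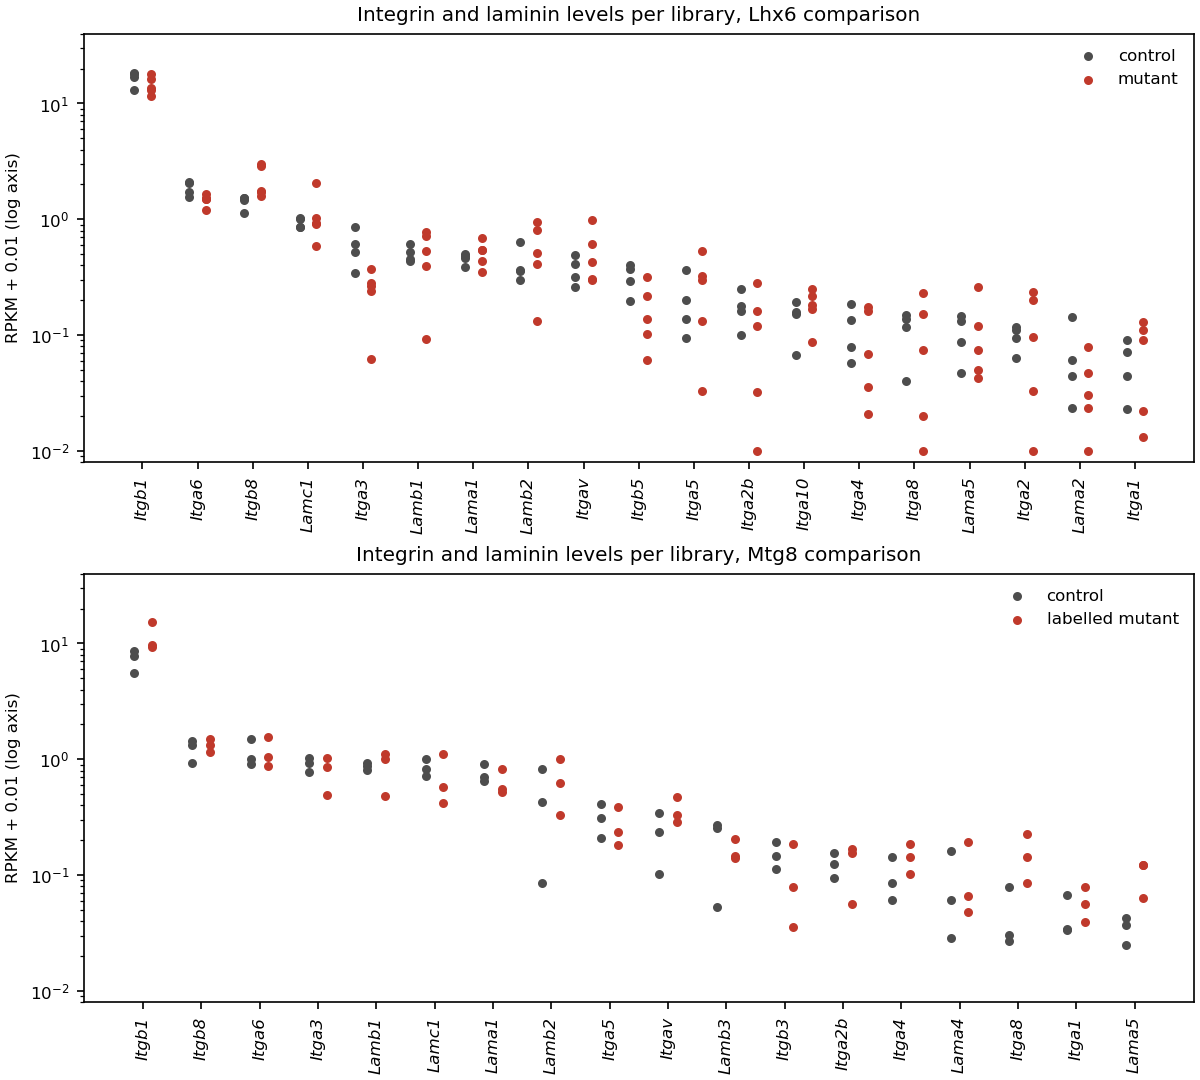
Level of each member tested (19 for *Lhx6* and 18 for *Mtg8*) in every library, in RPKM + 0.01 on a log axis, ordered by the mean of the controls, with controls in grey and mutant libraries in red (*Lhx6* comparison above, *Mtg8* comparison below). *Itgb1* stands above all other members in both panels, with control means of 16.6 and 7.34 RPKM.

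In the *Lhx6* comparison limma called 0 members at an adjusted p under 0.05, among 19 that reached a mean of 10 normalized counts. Over all 16727 genes tested, 1.03% were called higher and 0.682% lower, or 1.71% in either direction. With edgeR's quasi-likelihood test the count was also 0 (1.67% of all genes), and with DESeq2 0 (4.53% of all genes). At an unadjusted p under 0.05, *Itgb8* was on the higher side and *Itga3* on the lower side, against 7.11% of all genes on the higher side and 5.63% on the lower. Of the 19 members 7 had a positive and 12 a negative log2 fold change, with a median of -0.15, against 46.6% positive and a median of -0.04 over all genes. The median was -0.36 for 10 alpha integrins, -0.15 for 3 beta integrins and 0.05 for 6 laminins. This balance turned with the tool and with settings for low counts: DESeq2 gave 11 positive and 8 negative values for the same 19 members, with a median of 0.17, and a median of 0.08 for the alpha integrins, and edgeR gave the same split with medians of 0.16 and 0.08. In limma a pseudocount of 10 gave 9 positive and 10 negative (median -0.0086). A minimum mean of 50 gave 4 positive and 3 negative (median 0.17), while both other scalings kept 7 and 12. *Itga2b*, *Itga8*, *Itgb5* and *Lama2*, all negative in the main fit, had mutant means under 10 and entered the test only through the controls.

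*Itgb8* (ENSMUSG00000025321.14, chromosome 12 from 119158022 to 119238802) had 254, 240.2, 252 and 192 normalized counts in *Lhx6* controls 1 to 4, and 543, 492, 284, 294 and 291 in mutants 1, 2, 3, 5 and 6. Every mutant was above every control, as was the case for 3.19% of all genes (3.03% had every mutant below), with mutants 1 and 2 well above the other mutants. This was a log2 fold change of 0.64 (standard error, SE, 0.24, 95% interval 0.13 to 1.16), with an unadjusted p of 0.0176 and an adjusted p of 0.263 by limma. DESeq2 gave an adjusted p of 0.0938, the smallest of any member under any setting, and the two-sided exact permutation test gave p = 0.0317, where the design allows no p below 0.00794. The names of the libraries carried a date for *Lhx6* mutants 1, 2, 3 and 5 and none for mutant 6 and the controls, so that date and genotype are nearly the same split. Mutant 6 against the 4 controls, all without a date, gave 0.32. Of 11 radial glial markers, 9 also had a positive log2 fold change, with a median of 0.16. The list summed to 326 to 409 RPKM in controls and 268 to 584 in mutants. At an unadjusted p under 0.05 by limma 2 were higher and 0 lower, against 7.11% and 5.63% of all genes. DESeq2 called 1 higher, *Sox2* (adjusted p = 0.0107), against 4.53% of all genes in either direction. Of 10 pyramidal lineage markers, 6 were negative, with a median of -0.12 over the list and sums of 399 to 567 RPKM in controls and 296 to 438 in mutants. Of the 6 negative ones, 4 had an unadjusted p under 0.05 by limma, against 5.63% of all genes on the lower side. DESeq2 called 1 lower, *Fezf2* (adjusted p = 0.00276). Of 15 MGE interneuron markers 9 were positive and 6 negative, with a median of 0.03. Limma called 2 higher and 3 lower, *Lhx6* itself among them, against 1.03% and 0.682% of all genes. Of 6 megakaryocyte and erythroid markers tested 6 were negative, with a median of -0.66, of 8 mural and fibroblast markers 6 were negative, with a median of -0.56, of 9 microglial and leukocyte markers 6 were positive, with a median of 0.48, and of 3 oligodendrocyte lineage markers 2 were positive, with a median of 0.39. The sums of these 4 lists overlapped between the groups. Of 5 endothelial markers tested 2 were positive and 3 negative. At an unadjusted p under 0.05 by limma, 1 endothelial (*Pecam1*), 1 microglial (*Fcer1g*) and 1 oligodendrocyte lineage marker (*Pdgfra*) were higher. In these 3 lists 0 markers were lower at that threshold. *Fcer1g* and *Tyrobp*, another of the positive microglial markers, had control means of 8.79 and 8.22. Both are under the minimum of 10, so these genes entered the test only through the mutants, and the counts that hold them are a description. The part of these cells in the values of *Itgb8* and of *Itga3* was not tested.

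The other beta integrins tested were not called either. *Itgb1* (ENSMUSG00000025809.15, chromosome 8 from 128685654 to 128733200) had 1118, 1029.8, 805 and 1160.5 normalized counts in the controls and 778, 1014, 909, 833 and 1104 in the mutants. The groups overlapped, and the log2 fold change of -0.15 had an interval of -0.49 to 0.20, the narrowest of any member tested here. *Itgb5*, which pairs with ITGAV in a receptor of vitronectin, had 21.1, 15.1, 19.3 and 10.3 in the controls and 7.42, 2.78, 17.7, 11.6 and 4.95 in the mutants. Its groups overlapped too, and the interval of -2.33 to 0.36 was wide.

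Among the laminin-binding alpha chains, *Itga3* (ENSMUSG00000001507.16, chromosome 11 from 95044474 to 95076801), a receptor chain that has been studied in the migration of neurons along radial glia, had 73.1, 28.4, 51.6 and 45.3 normalized counts in the controls and 4.95, 24.1, 33.5, 20.3 and 22.3 in the mutants. Control 2 lay below mutant 3, so that the groups overlapped, and mutant 1 was the lowest library. The log2 fold change of -1.33 (SE 0.53, 95% interval -2.47 to -0.19) had an unadjusted p of 0.0260 and an adjusted p of 0.308 by limma, and mutant 6 against the controls gave -1.04. *Itga6* (ENSMUSG00000027111.16, chromosome 2 from 71745616 to 71858416) had 287, 277, 213 and 244 in the controls and 178, 215, 219, 233 and 206 in the mutants. Most mutants lay near the lowest control, and the log2 fold change of -0.28 (interval -0.67 to 0.11) had an adjusted p of 0.546 by limma. *Itga7*, known from muscle, did not reach the minimum for the test.

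The RGD-binding chains *Itgav* and *Itga5*, the latter the alpha chain of the fibronectin receptor, did not pass the test. *Itgav* (ENSMUSG00000027087.11, chromosome 2 from 83724397 to 83806916) had 40.4, 77.1, 49.7 and 66.7 normalized counts in the controls and 173, 99.0, 51.2, 70.7 and 47.0 in the mutants. Mutant 1 was far above the rest, the groups overlapped, and the log2 fold change of 0.46 (interval -0.39 to 1.31) was 0.17 without that mutant. *Itga5* had 9.61, 6.20, 26.7 and 14.5 in the controls and 42.1, 9.26, 1.86, 22.3 and 23.5 in the mutants, with an interval of -1.55 to 1.83. Mutants 1 and 3 were at opposite ends of its range. The remaining alpha chains tested were *Itga1*, *Itga2* and *Itga10*, which bind collagen, *Itga4*, a receptor chain of VCAM1 and fibronectin, *Itga8* and *Itga2b*, with log2 fold changes between -1.12 (*Itga2b*) and 0.41 (*Itga10*) and no unadjusted p under 0.05 by limma. The values at both ends rested on single libraries: *Itga2b* was at -0.46 without mutant 3 and *Itga10* at 0.08 without control 2.

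No laminin chain passed. *Lama1* (ENSMUSG00000032796.8, chromosome 17 from 67697259 to 67822647), the alpha chain of the embryonic basement membrane, had 66.3, 71.8, 69.1 and 56.4 normalized counts in the controls and 85.4, 79.6, 53.1, 63.9 and 99.1 in the mutants. *Lamb1* (ENSMUSG00000002900.16, chromosome 12 from 31265234 to 31329644) had 64.4, 75.3, 66.3 and 92.4 in the controls and 13.6, 109, 62.4, 80.4 and 115 in the mutants. Mutants spread beyond the controls on both sides in both genes, and for *Lamb1* mutant 1 was far below all other libraries. *Lamb2* (ENSMUSG00000052911.9, chromosome 9 from 108479736 to 108490530) had 31.7, 56.7, 26.7 and 33.4 in the controls and 12.4, 88.9, 49.4, 37.8 and 73.1 in the mutants, and again mutant 1 was the lowest. *Lamc1* (ENSMUSG00000026478.14, chromosome 1 from 153218922 to 153332786), the gamma chain of most laminins, had 106, 122, 126.2 and 109 in the controls and 125, 116, 277, 131 and 71.8 in the mutants. Mutant 3 lay far above the other 4 mutants, which surrounded the controls, and without it the log2 fold change of 0.17 was -0.09. Without mutant 1 that of *Lamb1* was 0.27 in place of -0.26. The intervals of the log2 fold change were -0.40 to 0.76 for *Lama1*, -1.39 to 0.88 for *Lamb1*, -0.84 to 1.40 for *Lamb2* and -0.53 to 0.88 for *Lamc1*, and each adjusted p by limma was at least 0.791. *Lama2* (-1.06) and *Lama5* (-0.08), the remaining laminins tested, had adjusted p-values by limma of 0.650 and 0.965. The log2 fold change of *Lama2* was -0.43 without mutant 2.

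In the *Mtg8* comparison, with 3 libraries against 3, limma called 0 of the 18 members tested, and also 0 (0%) of 16132 genes in all. DESeq2 called 0 members (0.191% of all genes) and edgeR 0 (0.0062% of all genes). At an unadjusted p under 0.05, 3 members stood on the higher side, namely *Itgb1*, *Itga8* and *Lama5*, and 0 on the lower side, against 3.06% and 2.44% of all genes. The same 3 members were those in which every labelled mutant was above every control, 3 of 18 against 4.68% of all genes, and in 0 members tested was every labelled mutant below every control, against 5.52%. Since the filter admitted *Itga8* and *Lama5* through the group where they are high, neither count of 3 can be read against the share of all genes. Of the 18 members 10 had a positive and 8 a negative log2 fold change, with a median of 0.03 (-0.0065 and 9 of each sign with DESeq2), against 48.5% positive and a median of -0.01 over all genes. The adjusted p of each of the 3 was 0.859 by limma, and their two-sided exact permutation p of 0.1 is the smallest that 3 against 3 libraries can give.

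*Itgb1* had 637, 595 and 439 normalized counts in *Mtg8* controls 1, 2 and 4 and 726, 684 and 1063 in labelled mutants 2, 3 and 4. The groups did not overlap, though the lowest labelled mutant was only a little above the highest control, and labelled mutant 4 was the highest. The log2 fold change was 0.55 (SE 0.24, 95% interval 0.03 to 1.08), with an unadjusted p of 0.0406 by limma. Library names carried a date for controls 1 and 2 and labelled mutant 2, and none for control 4 and labelled mutants 3 and 4. The difference was 0.24 within the dated and 0.95 within the undated libraries. Without labelled mutant 4 it was 0.36 and without control 4 it was 0.39.

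*Itga8* (ENSMUSG00000026768.10, chromosome 2 from 12106632 to 12301922), the alpha chain of the nephronectin receptor, had 2.24, 9.60 and 2.94 normalized counts in the controls and 18.1, 10.1 and 26.8 in the labelled mutants, that is, at most 35 reads in any of these libraries. Its highest control and its lowest labelled mutant were nearly equal. The log2 fold change was 1.82 (SE 0.67, 95% interval 0.36 to 3.28), with 1.71 within the dated and 2.16 within the undated libraries. Its exons overlap those of *E030013I19Rik* on the other strand, and the sources used here do not say whether reads were counted by strand. *Lama5* (ENSMUSG00000015647.9, chromosome 2 from 180176373 to 180225859), an alpha chain of the adult and vascular basement membrane, had 6.71, 3.20 and 5.87 in the controls and 23.8, 11.03 and 21.4 in the labelled mutants, at most 28 reads. All labelled mutants were above the controls, with 2.12 within the dated and 1.26 within the undated libraries and a log2 fold change of 1.64 (SE 0.59, 95% interval 0.36 to 2.92). Both *Itga8* and *Lama5* had control means under the minimum of 10 and entered the test only through the labelled mutants. Their values here are a description and no support for a difference. With a pseudocount of 10 in place of 1 the log2 fold changes were 0.91 for *Itga8* and 0.89 for *Lama5*.

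Markers of other cells differed in direction between the lists. Of 10 pyramidal lineage markers 10 had a positive log2 fold change in the labelled mutants, with a median of 0.60 and summed levels of 125 to 311 RPKM in controls and 215 to 514 in labelled mutants, with 4 higher at an unadjusted p under 0.05 by limma (3.06% of all genes) and 2 called by DESeq2 (0.191% of all genes in either direction). Of 11 radial glial markers 10 were positive, with a median of 0.53 and sums of 180 to 208 RPKM in controls against 245 to 390 in labelled mutants, with 4 higher at such a p and 0 called by DESeq2. Of 15 MGE interneuron markers tested, 12 were negative, with a median of -0.28 and sums of 1668 to 1955 RPKM against 854 to 1237, with 5 lower at such a p (2.44% of all genes) and 1, *Sst*, called by DESeq2. *Sst* made up most of the sum in controls, with a median of 1320 RPKM against 503 in labelled mutants. Of 4 oligodendrocyte lineage markers tested 4 were positive, with a median of 2.04 and sums of 0.055 to 4.41 RPKM against 0.384 to 8.30, and of 6 megakaryocyte and erythroid markers 6 were positive, with a median of 0.30 and sums of 820 to 1968 RPKM against 1174 to 2330. Of 7 endothelial markers tested 6 were positive, with a median of 0.66. *Olig2* of the oligodendrocyte lineage (control mean 3.96) and the endothelial *Slco1c1* (8.17) entered the test only through the labelled mutants. The endothelial list summed to 0.505 to 5.19 RPKM in controls and 0.644 to 3.99 in labelled mutants, with *Cdh5* at 0 in some libraries of both groups. Of 10 mural and fibroblast markers tested 7 were negative, with a median of -0.17, and of 9 microglial and leukocyte markers 5 were positive and 4 negative, with a median of 0.26. Sums overlapped between the groups except those of radial glial and MGE interneuron markers. The part of these cells in the values of *Itgb1*, *Itga8* and *Lama5* was not tested.

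**Figure D2:**
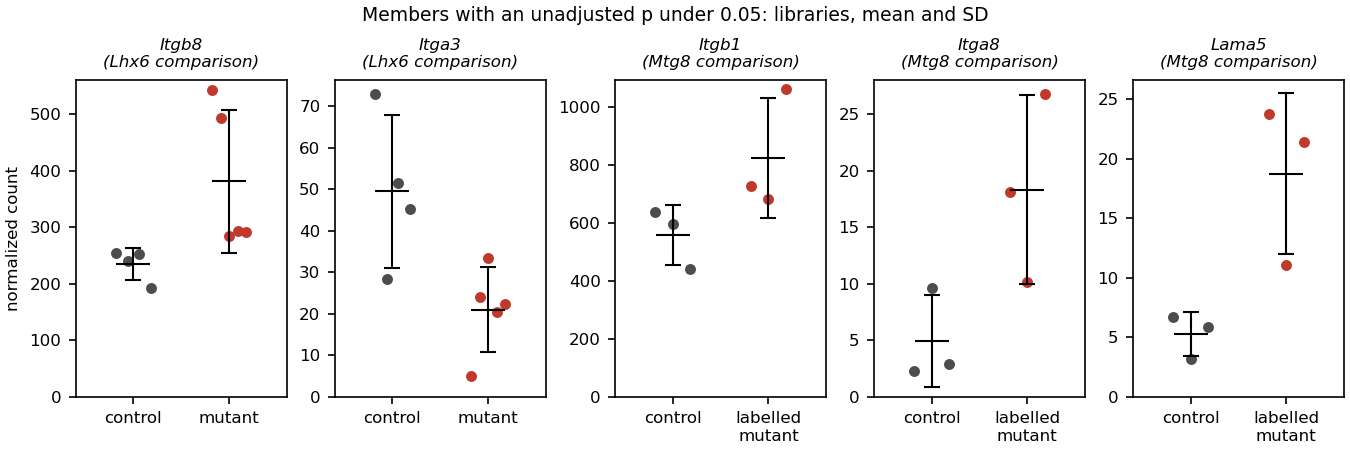
Normalized counts per library (points) with mean and standard deviation (bars) for the 5 members with an unadjusted p under 0.05, each in the comparison in which it had that p, controls in grey and mutant libraries in red. The groups overlap in *Itga3* and do not in the other 4 panels, where the gap is narrowest in *Itga8*.

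The other members tested in the *Mtg8* table overlapped between the groups. *Itgb8* had 182, 272 and 307 normalized counts in the controls and 267, 229 and 275 in the labelled mutants, and its log2 fold change of 0.05 had an interval of -0.52 to 0.62. *Itga6* had 163, 255 and 157 in the controls and 263, 170.0 and 133 in the labelled mutants, with an interval of -0.73 to 0.63. Both genes had nearly equal means in the 2 groups. *Itga3* had 95.01, 109 and 85.1 in the controls and 89.5, 49.6 and 97.8 in the labelled mutants, of which mutant 3 was the lowest and the other 2 lay among the controls. *Itgav* had 17.9, 45.9 and 68.5 in the controls and 55.5, 89.1 and 58.1 in the labelled mutants, and *Itga5* had 17.9, 27.7 and 38.1 in the controls and 15.9, 20.2 and 31.3 in the labelled mutants. For *Itgav*, control 1 was far below the other libraries, and the interval was -0.25 to 1.78. *Itgb5* stayed under the minimum for the test, with 2.24, 27.7 and 6.85 in the controls and 2.27, 8.27 and 6.88 in the labelled mutants, and *Itgb3*, the beta chain of the vitronectin receptor, which was tested in this table only, had a log2 fold change of -0.94 (interval -2.39 to 0.52), and -0.35 without labelled mutant 3.

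Among the laminins of the *Mtg8* table, *Lama1* had 121, 162 and 118 normalized counts in the controls and 97.4, 89.1 and 132 in the labelled mutants. *Lamb1* had 164, 147 and 166 in the controls and 204, 83.6 and 166 in the labelled mutants. Control values were tight in *Lamb1*, and labelled mutants 2 and 3 fell on either side of them. *Lamb2* had 45.8, 8.53 and 95.9 in the controls and 69.1, 34.9 and 102 in the labelled mutants, with a 95% interval of -0.66 to 2.38, and control 2 was far below the rest. Without that control its log2 fold change of 0.86 was -0.08. *Lamc1* had 105, 155 and 129 in the controls and 168, 60.7 and 78.7 in the labelled mutants, with an interval of -1.27 to 0.35. In both *Lamb1* and *Lamc1* labelled mutant 2 was the highest of its group and labelled mutant 3 the lowest. The log2 fold changes of *Lama4* (0.35) and *Lamb3* (0.0046) completed the 7 laminins tested, with adjusted p-values by limma of 0.957 and 0.999.

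**Figure D3:**
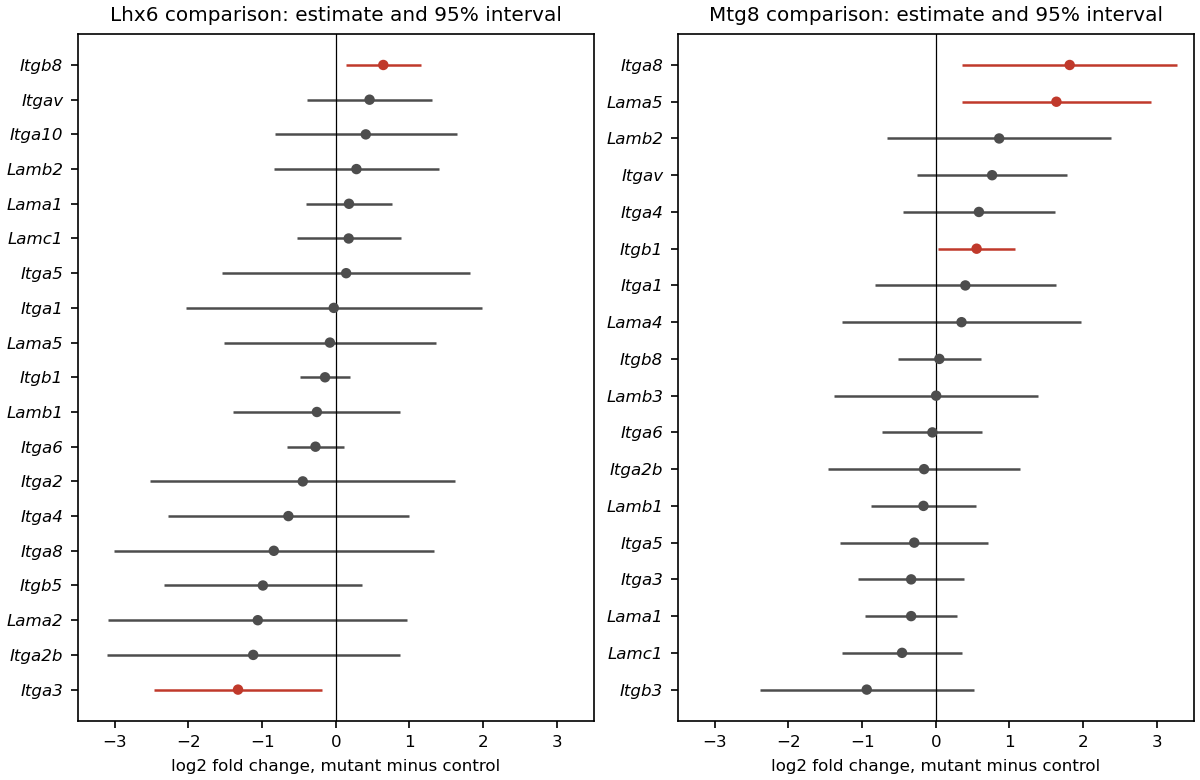
Log2 fold change (mutant minus control, horizontal axis) of each member tested, with its 95% interval from limma, for the *Lhx6* comparison (left, 19 members) and the *Mtg8* comparison (right, 18 members); red marks an unadjusted p under 0.05. The intervals of *Itgb1* and *Itga6* are narrow in the *Lhx6* panel, and those of low members such as *Itga2b* span several log2 units.

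The values of the members in the 2 comparisons come from separate embryos and can be set side by side. The log2 fold change of *Itgb8* came to 0.64 with *Lhx6* lost and to 0.05 in labelled *Mtg8* mutants. *Itgb1* had -0.15 and 0.55, *Itga3* -1.33 and -0.33, *Itga8* -0.84 and 1.82, and *Lama5* -0.08 and 1.64. The *Mtg8* value of *Itga3* rested on labelled mutant 3, without which it was -0.03, and it was -0.04 with the replicate block. The *Lhx6* value of *Itga8* was -0.19 without mutant 3 and -0.18 with DESeq2, and that of *Lama5* turned to 0.17 with DESeq2. None of the 5 had an unadjusted p under 0.05 by limma in both comparisons, and whether the comparisons differ was not tested. Among the 19 members tested in the *Lhx6* table the coefficient of variation ran from 8.69% (*Lamc1*) to 88.9% in controls and from 9.76% (*Itga6*) to 105.5% in mutants.

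Members below a mean of 10 normalized counts numbered 11 of 30 for *Lhx6* and 14 of 32 for *Mtg8*. In the *Lhx6* table they included *Itga7*, *Itga9*, *Itga11*, *Itgae*, *Itgb3*, *Itgb4*, *Itgb7*, *Lama4*, *Lamb3* and *Lamc3*, with at most 32 reads in a library (*Lama4*) and 47.5% of the values of all 11 at 0. In the *Mtg8* table they included *Itga2*, *Itga7*, *Itga9*, *Itga10*, *Itga11*, *Itgae*, *Itgb2*, *Itgb4*, *Itgb5*, *Itgb7*, *Lama2*, *Lama3* and *Lamc3*, with at most 26 reads (*Itgb5*) and 25.0% of the values of all 14 at 0. These members include *Itgae*, *Itgb2* and *Itgb7*, chains of leukocyte integrins, *Itgb4*, *Lama3* and *Lamb3*, which belong to the adhesion of epithelia to their basement membrane, and *Itga11*, a collagen receptor of fibroblasts. With no filter on low values limma tested all 30 and 32 members and called 0 in either table. Exons of 4 of 32 members overlap those of another gene, on the other strand for *Itga4*, *Itga8* and *Itgav* and on the same strand for *Itga10*, so that their reads could be split or shared.

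*Itga2* and *Itga1* lie 21.0 kb apart on chromosome 13, both on the minus strand. *Itga1* and *Itga2* were both low in *Lhx6* controls, at 0.0473 and 0.0869 RPKM.

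The list for the machinery on the inner face of integrins named 36 genes of adaptors and kinases. Among them were talins, kindlins, focal adhesion kinase and integrin-linked kinase. Measured values existed for 32 of them in the *Lhx6* comparison and for 31 in the *Mtg8* comparison. *Ilk*, the gene of integrin-linked kinase, reached at most 0.04 RPKM in *Lhx6* controls and 0.021 in *Lhx6* mutants and was not tested. Exon overlap with other genes was examined for the members only. Whether reads of *Ilk* were lost in counting was not tested, so its low value does not show that the RNA is absent. This list and the following ones were compiled with results of these data known. Of 27 tested in the *Lhx6* table limma called 0, with *Kank1* and *Sharpin* at an unadjusted p under 0.05, both lower (5.63% of all genes), and the median log2 fold change was 0.07. *Ptk2*, the gene of focal adhesion kinase, was at 1125 ± 38.9 (SD, n = 4) normalized counts in controls and 1124 ± 96.8 (SD, n = 5) in mutants. That is a log2 fold change of -0.0047 (SE 0.12). *Sharpin*, whose product holds integrins inactive, was at 723 ± 109 (SD, n = 4) normalized counts in controls and 502 ± 54.8 (SD, n = 5) in mutants, with every mutant below every control (3.03% of all genes). It passed DESeq2 (adjusted p = 0.0202) and not limma (adjusted p = 0.148). For *Mtg8*, 0 of 26 were called, 0 had an unadjusted p under 0.05 by limma, 20 were positive (48.5% of all genes) and the median was 0.16.

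Among ligands of integrins other than laminin, limma called 1 higher and 2 lower of 23 tested in the *Lhx6* table, against 1.03% and 0.682% of all genes, a list compiled with these results known. *Thbs1*, a matricellular thrombospondin, was at 1990.3 ± 214 (SD, n = 4) normalized counts in controls and 282 ± 46.4 (SD, n = 5) in mutants, a log2 fold change of -2.83 (SE 0.16, limma adjusted p = 1.08e-06). *Tgfb3*, whose latent form is bound by ITGAV with ITGB8, was at 303 ± 77.1 (SD, n = 4) normalized counts in controls and 41.4 ± 23.4 (SD, n = 5) in mutants, with -3.00 (SE 0.42, limma adjusted p = 0.00182). *Ibsp*, an RGD-containing sialoprotein of bone matrix, was at 4.26 ± 5.19 (SD, n = 4) normalized counts in controls and 113 ± 59.1 (SD, n = 5) in mutants, with 4.93 (SE 0.86, limma adjusted p = 0.00949). In all 3 the groups did not overlap, and mutant 6 against the controls gave -3.25, -3.39 and 5.05. *Npnt*, the ligand of ITGA8 with ITGB1, was at 21.0 ± 12.4 (SD, n = 4) normalized counts in controls and 87.5 ± 61.0 (SD, n = 5) in mutants, which passed DESeq2 (adjusted p = 0.0111) and not limma (adjusted p = 0.123), with overlapping groups and a log2 fold change of 1.92, or 0.72 for mutant 6 alone against the controls. *Reln*, a secreted guide of migrating neurons, was at 1655 ± 276 (SD, n = 4) normalized counts in controls and 1924 ± 469 (SD, n = 5) in mutants and did not pass.

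For *Mtg8*, 0 of 21 ligands were called by limma, with 3 higher and 2 lower at an unadjusted p under 0.05, against 3.06% and 2.44% of all genes. Those on the higher side were *Ccn1* (log2 fold change 1.04, every labelled mutant above every control), *Edil3* (1.08) and *Fn1* (0.75), the gene of fibronectin, and those on the lower side *Thbs1* and *Tgfb3*. *Thbs1* was at 5446 ± 517 (SD, n = 3) normalized counts in controls and 2720.4 ± 672 (SD, n = 3) in labelled mutants. Every labelled mutant was below every control (5.52% of all genes), and the log2 fold change of -1.03 (SE 0.21) passed DESeq2 (adjusted p = 0.0241) and not limma (adjusted p = 0.580), with -0.60 within the dated and -1.35 within the undated libraries. *Tgfb3* was at 1113 ± 213 (SD, n = 3) normalized counts in controls and 697 ± 142 (SD, n = 3) in labelled mutants, again with no overlap, and passed neither test (limma adjusted p = 0.859).

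Of 24 basement membrane partners of laminin, such as nidogens, agrin, perlecan and the enzymes that glycosylate dystroglycan, limma called 0 of 20 tested for *Lhx6* and 0 of 18 for *Mtg8*, with median log2 fold changes of 0.03 and 0.04. At an unadjusted p under 0.05 by limma, *Dag1*, *Ntng1* and *Ntng2* were on the higher side and *Pomt2* on the lower side for *Lhx6*, against 7.11% and 5.63% of all genes, and 0 genes for *Mtg8*. *Dag1*, the gene of dystroglycan, a laminin receptor that is no integrin, was at 594 ± 125 (SD, n = 4) normalized counts in controls and 937 ± 160.2 (SD, n = 5) in mutants. The groups overlapped, and its log2 fold change of 0.66 (SE 0.19) passed DESeq2 (adjusted p = 0.0229) and not limma (adjusted p = 0.118), with 0.28 for mutant 6 against the controls. In the *Mtg8* table it was at 649 ± 37.5 (SD, n = 3) normalized counts in controls and 787 ± 297 (SD, n = 3) in labelled mutants.

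**Figure D4:**
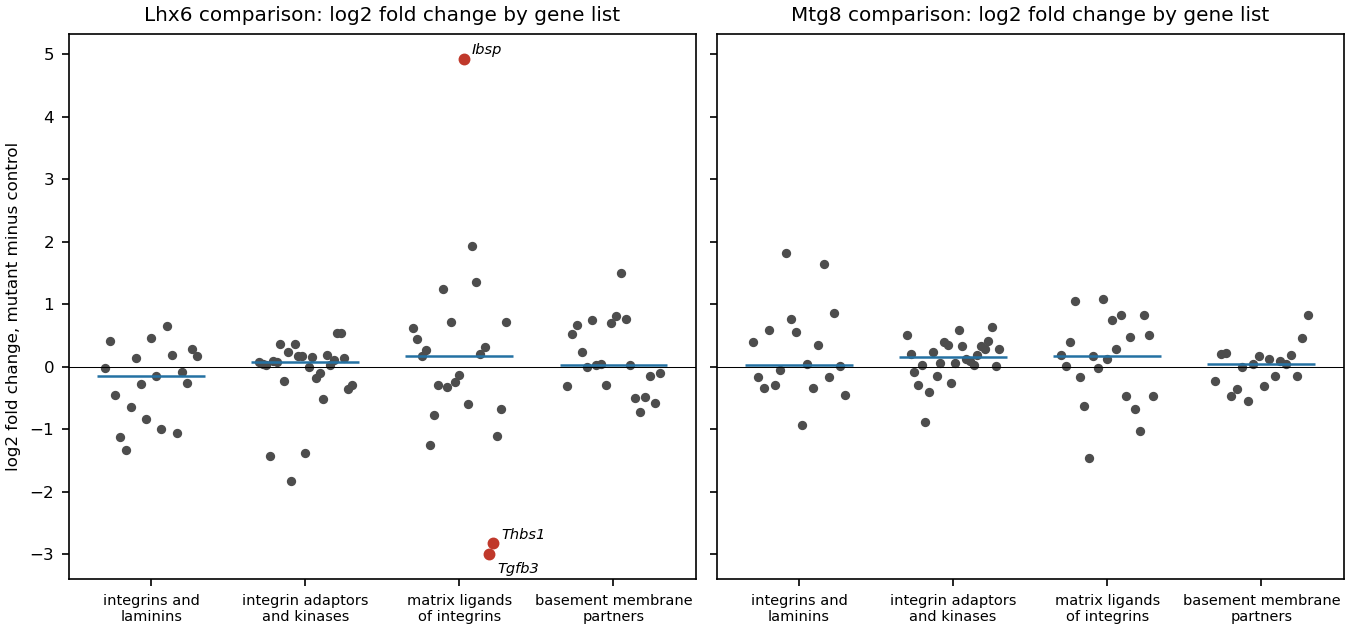
Log2 fold change (mutant minus control, vertical axis) of every tested gene of the members and of the 3 related lists, for the *Lhx6* comparison (left) and the *Mtg8* comparison (right), with list medians as blue lines and genes past limma's adjusted threshold in red. The integrins and laminins lie between -1.33 and 0.64 on the left and between -0.94 and 1.82 on the right, and the 3 red genes, all in the left panel, are the ligands *Ibsp*, *Thbs1* and *Tgfb3*. Of these, *Ibsp* entered the test only through the mutants.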

How the data were processed

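Per the labels and the study's methods, cortices of single E14.5 embryos were dissociated, YFP-positive cells were sorted, and libraries made with a low-input kit were sequenced as single reads. The authors used fastp 0.20.1 for trimming, STAR 2.7b for alignment to GRCm38.p6 and featureCounts 1.6.4 for counting, and removed sex-linked genes; whether counting used strand is not given in the sources used here. The authors deposited a signal, the gene's reads over a DESeq2 size factor of the library, with the *Lhx6* and *Mtg8* tables normalized separately. Deposited fold changes, statistics and p-values of the authors' own comparisons were not used. All values were whole multiples of 1 read (100% within a tolerance of 0.01), and these recovered reads gave depth and RPKM (with the exon length that the authors deposited).

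Each table was tested alone with limma 3.58.1 under R 4.3.3 (two-sided, eBayes with trend) on log2 values of normalized counts + 1. Genes whose mean reached 10 were tested, with Benjamini-Hochberg adjustment over all genes tested and a threshold of 0.05. A gene with 1 group mean under 10 entered only through its other group, and its value is a description. Fold changes are differences of mean log2 values, so that those of low genes depend on the pseudocount of 1 and exceed those of the count models in some members. edgeR 4.0.16 and DESeq2 1.42.0 were run on the recovered reads, and the fits were tested on simulated data. Alternatives were other pseudocounts, filters and scalings, no trend, a block for replicate number, a term for dated library names, and leaving out each library. Groups and replicate numbers came from the sample labels. The p-values set group differences against the spread between libraries, each from 1 embryo, and the number of embryos limits their precision. The main test treated libraries that share a date or number in their names as independent, so it does not separate embryo from date or shared number. Reads carry no molecular identifiers, so they are not independent molecules. The members and gene lists were chosen with earlier results of these data known. Values per library were given for members that passed any of the 3 tools (0 members) and for the 10 with the highest RPKM in the controls of either table, and members with an unadjusted p under 0.05 were named with their fold change; *Itga8* and *Lama5* also had their values per library given, a choice made after those values were seen. Of the members below the count minimum, 1 is not reported here.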

Additional observations from a re-analysis of the deposited data

Results flagged for a closer look

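Of 38 groups of 4 or 5 libraries, 1 for each tested member in the *Lhx6* controls and mutants, 1 held a library far from the others by Dixon's test at the 95% level. It was *Lamc1* in *Lhx6* mutant 3, with 276.6 normalized counts, where the other 4 mutants had 71.8 to 131. Chance alone would single out about 1 in 20 such groups. The groups of 3 libraries in the *Mtg8* comparison were not examined in this way.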

How the results depend on the processing

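Counts of members called were 0 in either direction under each of the 20 alternatives of the *Lhx6* comparison and the 17 of the *Mtg8* comparison, the replicate block included, and the smallest adjusted p among them was 0.0938 (*Itgb8*, DESeq2) and 0.148 (*Lamb2*, replicate block). Of the members tested, 10 of 19 in the *Lhx6* comparison and 7 of 18 in the *Mtg8* comparison changed sign under at least 1 alternative (6 and 7 without the term for dated names). None of them was called, and the cause was not tested. In the *Lhx6* comparison these were *Itga1* and *Itga2* with a pseudocount of 10 (0.1396 and 0.013), with edgeR (0.4296 and 0.3279) and with DESeq2 (0.4398 and 0.3354), *Lama5* with edgeR (0.157), DESeq2 (0.1655) and the replicate block (0.3547), *Lamb1* with edgeR (0.0288) and DESeq2 (0.0294), *Itga5* with the replicate block (-0.25), and, with the term for dated names, which in this table leaves mutant 6 alone against the 4 controls since every dated library is a mutant, *Itga1* (1.5076), *Itga8* (1.2372), *Itgav* (-0.26), *Itgb1* (0.12), *Lama2* (0.6239), *Lamb1* (0.63) and *Lamc1* (-0.68). In the *Mtg8* comparison they were *Itga2b* with the replicate block (0.3223) and the term for dated names (0.0511), *Itga6* with equal totals (0.0248) and that term (0.15), *Itgb8* with the replicate block (-0.0912) and that term (-0.0137), *Lama4* with that term (-0.0951), *Lamb1* with the replicate block (0.23), and *Lamb3* with a pseudocount of 10 (-0.0882), edgeR (-0.3093), DESeq2 (-0.3245) and that term (-0.25). Leaving out 1 library at a time gave -0.4986 to 0.629 for *Itga1*, -0.6413 to 0.2749 for *Itga2*, -0.24 to 0.73 for *Itga5*, -0.5068 to 0.1976 for *Lama5*, -0.48 to 0.27 for *Lamb1* and -0.0949 to 0.39 for *Lamc1* in the *Lhx6* comparison, and -0.4107 to 0.3347 for *Itga2b*, -0.31 to 0.18 for *Itga6*, -0.17 to 0.20 for *Itgb8*, -0.3161 to 1.0748 for *Lama4*, -0.43 to 0.21 for *Lamb1*, -0.0802 to 1.59 for *Lamb2* and -0.7758 to 0.442 for *Lamb3* in the *Mtg8* comparison. The 5 members with an unadjusted p under 0.05 kept their direction, in the comparison in which they had it, under each setting that gave a value. *Itga8* and *Lama5* had entered the *Mtg8* test only through their high group, so their kept direction is no support for a difference. Deviations of same-numbered libraries correlated at -0.154, 0.00175 and 0.0717 in 3 *Lhx6* pairs, with 0 of 6 libraries closest to their own number, and at 0.138 and 0.159 in 2 *Mtg8* pairs, with 4 of 4 closest to their own number. With 2 pairs, and no label that gives the number a meaning, the *Mtg8* libraries were not treated as paired, and in the library names controls 1 and 2 and labelled mutant 2 share a date and a further number, while control 4 and labelled mutant 4 share neither. Without labelled mutant 2 *Lama5*, and without labelled mutant 4 *Itga8*, fell below the minimum mean and had no value, as did low members at a minimum mean of 50. Other scalings moved the median of all genes by at most 0.07 on the log2 scale. Low counts limit the members below the filter, and 3 against 3 libraries limit the *Mtg8* comparison.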
